A study of Mus musculus with 2 samples.

Results

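The 10 genes described here form the core of the mammalian Hippo pathway: the upstream kinases Stk3 and Stk4 (also called MST2 and MST1), the kinases Lats1 and Lats2, the coactivators Yap1 and Wwtr1 (TAZ), and the DNA-binding factors Tead1, Tead2, Tead3 and Tead4. Each was chosen by name and found by its Ensembl identifier, and all 10 had a locus among the 34624 loci of the data. The deposited rows join some overlapping genes, and a row or set of rows with the same gene identifiers is called a locus. No other gene identifier shared the locus of 8 genes, while Yap1 shared its locus with the gene model Gm20416 and Lats2 with Xpo4, which encodes a nuclear exportin. The samples are whole embryos, at embryonic day 10.5 and untreated, from CBA/Ca×C57Bl/10 mouse crosses, and form 1 group of 2 replicates whose RNA was sequenced. The study therefore holds no comparison between conditions, and the results are levels of transcripts in 1 kind of sample. The labels give no number of embryos per replicate, so pooling cannot be told.

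In the Hippo pathway, Stk3 and Stk4 phosphorylate and activate Lats1 and Lats2 with the help of the adaptors Sav1, Mob1a and Mob1b. The Lats kinases in turn phosphorylate YAP and TAZ, which are then held in the cytoplasm or degraded. Unphosphorylated YAP and TAZ enter the nucleus, bind Tead factors, which contact DNA through the sequence GGAATG, and activate genes of growth and of the cell matrix. The pathway restrains organ size and acts in the embryonic heart, neural tube and epithelia. Much of its control lies in phosphorylation and in the location of YAP and TAZ, which RNA levels do not show.

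Levels are given as RPKM, read counts scaled by transcript length and by library size, first in replicate 1 and then in replicate 2. The libraries held 18318181 and 117522171 reads summed over loci, so replicate 2 is the more precise. The 95% exact Poisson intervals given for a level cover counting error only. All 11 markers of embryonic tissues reached 1 RPKM in both replicates, with means from 19.1 to 4110 RPKM, while 0 of 7 trophoblast markers did. Of all protein-coding loci, 65.1% reached it. The 7 markers cover trophoblast only. The part of yolk sac or other extraembryonic tissue, also in the value of the marker Afp (196 and 82.0 RPKM), was not tested. In whole embryos, fewer cells of a type and less RNA per cell cannot be told apart.

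All 10 genes reached 1 RPKM in both replicates, as did 49.4% of all loci and 65.1% of protein-coding loci. At 10 RPKM in both replicates stood 8 of the 10, against 29% of all loci and 42.2% of protein-coding loci. Their median level was 74.7 and 46.8 RPKM, beside 8.38 and 5.52 RPKM over all protein-coding loci and 26.3 and 19.1 RPKM over the protein-coding loci that reached 1 RPKM in both. Within the set the mean level ran from 1.70 RPKM for Tead4 to 310.0 RPKM for Tead2. The plot of RPKM by gene shows this range.

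**Figure D1:**
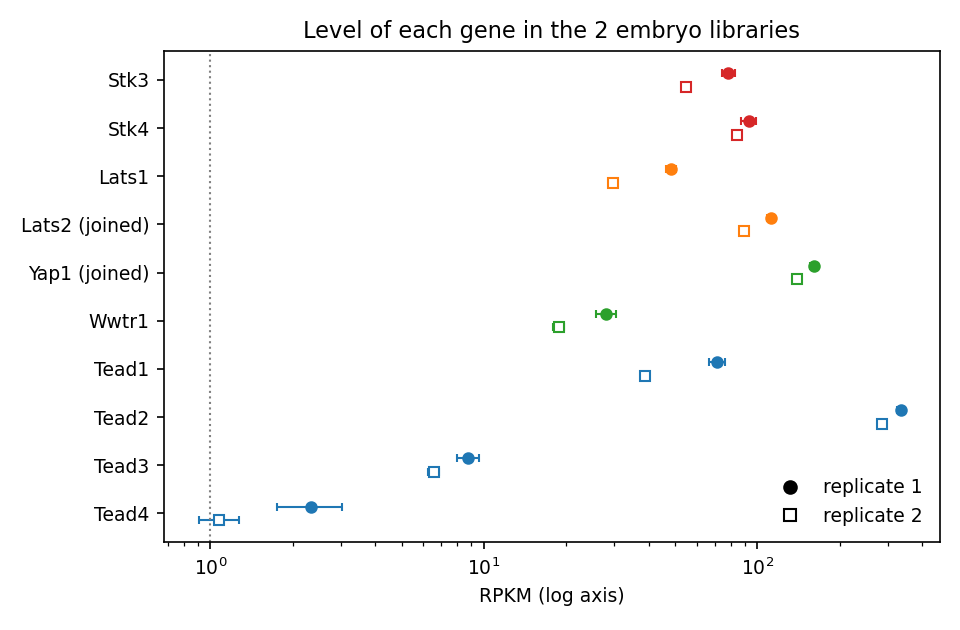
RPKM of each gene (log axis) in replicate 1 (filled circles) and replicate 2 (open squares), coloured by role, with 95% exact Poisson counting intervals as bars; the dotted line marks 1 RPKM. Tead2 (334 and 286) stands highest and Tead4 (2.33 and 1.08) lowest, and every gene is lower in replicate 2.

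Yap1 was the more abundant coactivator transcript. Its locus (ENSMUSG00000053110) stood at 161 RPKM from 3393 reads in replicate 1 and 139 RPKM from 13779 reads in replicate 2, at percentile 94.9 of protein-coding loci. Of the 11 transcripts in that locus, 10 belong to Yap1 and 1 to Gm20416, so the value belongs to both. Wwtr1, which encodes TAZ (ENSMUSG00000027803), stood at 28.0 RPKM (545 reads) and 18.8 RPKM (2075 reads), at percentile 67.9. The replicates of the 2 genes did not overlap. Yap1 supplied 85.2% and 88.1% of the summed RPKM of the coactivators. On the log2(RPKM + 1) scale Yap1 exceeded Wwtr1 by 2.66 ± 0.24 (SD, n = 2), or 5.76-fold and 7.42-fold on the RPKM scale.

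Differences between paralogues were set against a limit, since both genes of a pair are measured in the same 2 libraries and no exact two-sided test over 2 paired differences can give a p below 0.5. The limit was 2 times the root of the summed squared SDs of the log2 ratio between replicates, taken for each gene from the loci of its level. A pair was called when its difference had 1 sign in both replicates and a mean size above that limit. Yap1 against Wwtr1 was called, with a limit of 1.52. Over all 9 pairs within the 4 families, 6 were called, beside 55.4% of all pairs of protein-coding loci that reached 1 RPKM in both replicates. The number of called pairs by itself therefore says little about these families, and the sizes carry the description.

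The promoters of both coactivator genes hold the 6 bases that Tead factors recognise, and these are shown because the coactivators act through that sequence. Sequences are from RefSeq (GRCm38.p6), 5′ to 3′ on the gene's strand, with GGAATG in capitals. The Yap1 stretch lies at chr9:8004712-8004757 on the minus strand, and the match starts 141 bases upstream of the transcript start. That of Wwtr1 lies at chr3:57576021-57576066 on the minus strand, with the match starting 136 bases upstream of 1 of the 2 starts in the table.
Yap1: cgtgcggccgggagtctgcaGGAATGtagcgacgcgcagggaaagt
Wwtr1: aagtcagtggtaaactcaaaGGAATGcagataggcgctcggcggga
A search for GGAATG on both strands (CATTCC on the other) covered 250 bases before to 50 bases after each start. It found a match in 4 of the 7 genes of the set with an entry, Yap1, Wwtr1, Tead3 and Lats2, and in 16.6% of the 27025 genes in the table. Some genes have several windows. By window, 6 of the 11 windows of the set held a match, against 14.7% of all 32851 windows. Stk3, Tead1 and Tead4 had no entry. The windows of the set were also rich in G and C, with a median of 67.7% against 52.7% over all windows. A match is a run of letters and not evidence of binding.

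The Tead2 locus was the highest of the Tead family in both replicates. Tead2 (ENSMUSG00000030796), known as the Tead gene of early embryos and neural progenitors, stood at 334 RPKM (3899 reads) and 286 RPKM (17898 reads), at percentile 98.2 of protein-coding loci. Of the 13 transcripts in that locus, 3 carry a current Tead2 identifier, 1 belongs to the neighbouring gene Med25 and 9 have no match in the annotation used, so the value may not be that of Tead2 alone. It supplied 80.2% and 86.0% of the summed RPKM of the family. Tead1 (ENSMUSG00000055320), which is needed for growth of the embryonic heart, followed at 71.2 RPKM (884 reads) and 38.8 RPKM (2901 reads), or 17.1% and 11.7% of the family sum. The replicates of Tead1 lay below both replicates of Tead2.

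The other members of the family were lower in the deposited values, although Tead3 against Tead1 turned with the length used. Tead3 (ENSMUSG00000002249), known from placenta, stood at 8.75 RPKM (451 reads) and 6.56 RPKM (1841 reads), near the middle of protein-coding loci at percentile 51.1. Tead4 (ENSMUSG00000030353), which is required for the trophectoderm of the blastocyst, stood at 2.33 RPKM (56 reads) and 1.08 RPKM (146 reads), at percentile 36.4. With so few reads the level of Tead4 was the least certain of the set, with counting intervals of 1.76 to 3.02 RPKM and of 0.911 to 1.27 RPKM. The second interval spans 1 RPKM, so at this depth it cannot be said on which side of the minimum Tead4 lies in replicate 2. Of 7 trophoblast markers in the same libraries, Tpbpa and Psg21 had 0 reads in both. The highest, Prl3b1, stood at 1.90 and 0.970 RPKM, near the level of Tead4. Prl8a2, a Prl gene outside the 7 markers, stood higher, at 1.23 and 6.38 RPKM. The part of trophoblast tissue in the Tead4 value was not tested.

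Of the 6 Tead pairs, 5 were called beyond the replicate spread. Tead2 exceeded Tead4 by 6.88 ± 0.32 on the log2(RPKM + 1) scale and Tead3 by 5.17 ± 0.10. Tead1 exceeded Tead4 by 4.35 ± 0.13 and Tead3 by 2.64 ± 0.35. The call of Tead1 over Tead3 was lost with lengths that leave out the 3′ UTR (0.71), and the difference turned to -0.89 with the longest whole transcript. Tead3 exceeded Tead4 by 1.71 ± 0.22 against a limit of 1.56, and the call was lost without replicate 2 (1.55) and when 0.1 or 0.01 was added to RPKM in place of 1. The difference of Tead1 and Tead2 (-2.53 ± 0.45) lay just within its limit of 2.59. That limit is wide because loci of 221 RPKM or more had an SD of 1.19 between replicates. With SDs from protein-coding loci alone the limit was 1.55 and the pair was called. Over 14 alternatives this pair was called in 8, among them the longest whole transcript (-3.68) and lengths without the 3′ UTR (-1.77).

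The Tead3 promoter window holds GGAATG as well, and it is printed because Tead3 is the only Tead gene with a match among those with an entry, Tead2 and Tead3. The stretch lies at chr17:28350962-28351007 on the minus strand, and the match starts 182 bases upstream of the transcript start of its window. Of the 3 Tead3 windows, which belong to different starts, this one holds 1 match, another 3 and the third none.
Tead3: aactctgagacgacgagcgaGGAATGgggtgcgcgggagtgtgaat
Few stretches of sequence were shared between the paralogues. In annotated transcripts, 24 of the 3041 stretches of 36 bases in the longest Tead4 transcript also occurred in Tead3 (0.789% shared with any gene), and Tead2, Stk3 and Stk4 shared 0 such stretches with any other gene. The read length is not given in the sources used here.

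**Figure D2:**
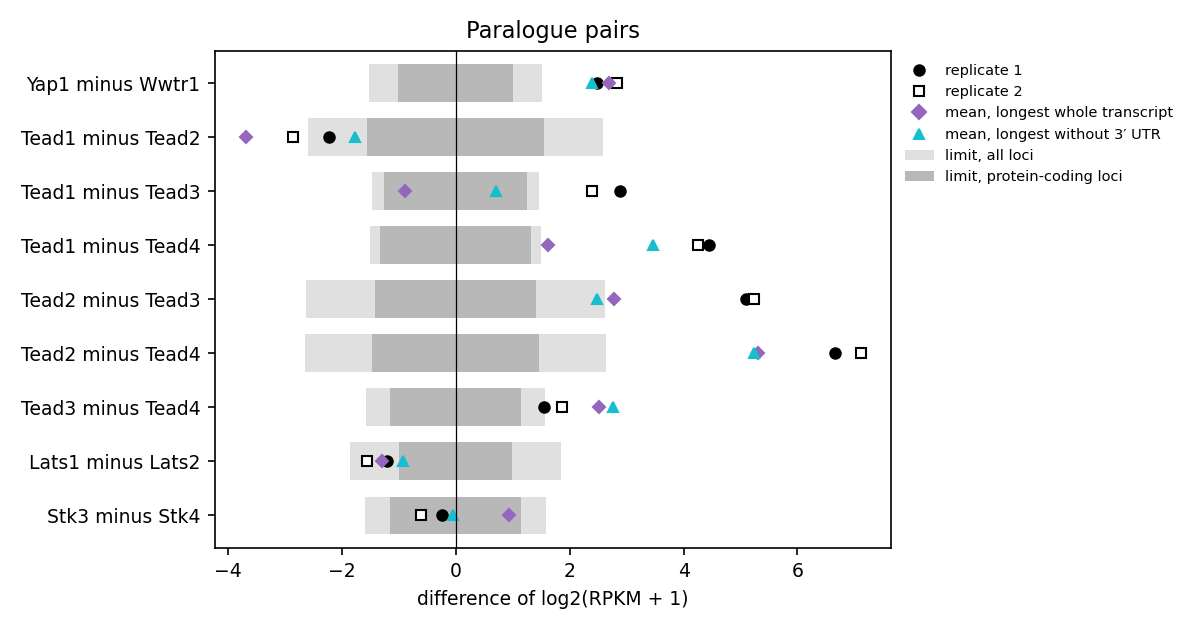
Differences of log2(RPKM + 1) for the 9 paralogue pairs in replicate 1 (circles) and replicate 2 (squares). Grey bars are the limits from all loci (light) and from protein-coding loci (dark) for the deposited values. Diamonds and triangles are means after dividing reads by the longest whole transcript or by the longest without its 3′ UTR. Yap1 minus Wwtr1 stays between 2.40 and 2.83 throughout, while Tead1 minus Tead3 falls from 2.64 to 0.71 and -0.89.

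Both upstream kinases stood well above the middle of protein-coding loci. Stk4 (ENSMUSG00000018209), the kinase MST1, stood at 92.8 RPKM (1099 reads) and 84.2 RPKM (5253 reads), at percentile 89.8 of protein-coding loci. Stk3 (ENSMUSG00000022329), the kinase MST2, stood at 78.2 RPKM (1313 reads) and 54.9 RPKM (5353 reads), at percentile 85.9. Stk4 was higher in each replicate, and its lower value lay above the higher value of Stk3. The difference, -0.43 ± 0.26 for Stk3 minus Stk4 on the log2(RPKM + 1) scale, was within the limit of 1.59. Stk4 supplied 54.3% and 60.5% of their summed RPKM, and with the longest whole transcript as length its mean share was 33.6%. The order of these kinases thus turned with the length used.

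Of the Lats kinases, which phosphorylate YAP and TAZ, Lats1 gave a value of its own. Lats1 (ENSMUSG00000040021) stood at 48.3 RPKM (2384 reads) and 29.7 RPKM (8290 reads), at percentile 77.0. The locus that holds Lats2 (ENSMUSG00000021959) stood at 112 RPKM (4035 reads) and 89.1 RPKM (16329 reads), above Lats1 in each replicate. That locus cannot be read as Lats2. Of its 20 transcripts 9 belong to Lats2 and 10 to Xpo4 or the gene model Gm49361, and 56.7% of the stretches of 36 bases in the longest Lats2 transcript also occur in Gm49361. Lats1 against the joined locus (-1.37 ± 0.25) was within its limit of 1.85. With SDs from protein-coding loci alone the limit was 0.98 and the pair was called.

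In order of mean RPKM the set ran Tead2 (310.0), Yap1 (150.2), the Lats2 locus (100.4), Stk4 (88.5), Stk3 (66.6), Tead1 (55.0), Lats1 (39.0), Wwtr1 (23.4), Tead3 (7.66) and Tead4 (1.70). Neighbours are close by construction of the order, so their calls are a description only. Of the 9 neighbouring pairs 2 were called, Wwtr1 over Tead3 and Tead3 over Tead4. Wwtr1 exceeded Tead3 by 1.57 in replicate 1 and 1.38 in replicate 2 (limit 1.40), and with the longest whole transcript as length the mean difference turned to -0.48. From Tead2 down to Wwtr1 no neighbour was called, although genes further apart, such as Yap1 and Wwtr1, were.

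Levels of different genes also depend on the length that each RPKM was divided by, and in most loci checked that length was not the whole transcript. Among single-transcript protein-coding loci over 200 reads, the length implied by the deposited reads and RPKM lay within 1% of the annotated transcript less its 3′ UTR in 61.1% of 1675 loci, and within 1% of the whole transcript in 2.63%. For Wwtr1 it was 1.42 kb in both replicates, the same as the longest Wwtr1 transcript without its 3′ UTR. In loci with many transcripts it was often shorter: 0.851 and 0.803 kb for Tead2, 0.906 and 0.960 kb for Tead1, and 0.864 and 0.801 kb for Stk4. Tead3 stood at the other end, with 3.76 and 3.60 kb against 1.73 kb for its longest coding transcript without the 3′ UTR. Those lengths also exceed the 2.775 kb of its longest whole coding transcript. Of the 8 transcripts in the Tead3 locus, 2 have no match in the annotation used.

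Dividing the reads by 1 annotated length per gene brought the levels closer together. With the longest coding transcript without its 3′ UTR, mean levels were 126.8 RPKM for Yap1, 95.02 RPKM for Tead2, 28.0 RPKM for Tead1 and 16.4 RPKM for Tead3, so Yap1 and not Tead2 was highest. With the longest whole transcript Tead2 was highest again at 75.7 RPKM, followed by Yap1 at 50.9 RPKM, and Tead1, whose longest transcript has 9.96 kb, fell to 5.10 RPKM and below Tead3 at 10.2 RPKM. Tead2 was the highest Tead gene under each length, with a mean share of the family sum of 83.1% as deposited, 82.5% over whole transcripts and 67.8% without 3′ UTRs. Yap1 kept 86.7%, 87.9% and 84.5% of the coactivator sum under the same lengths. The summed Tead level was 2.20 and 2.10 times the summed coactivator level as deposited and 1.53 and 1.67 times over whole transcripts. Without 3′ UTRs it was 0.920 and 0.965 times. The answer thus depends on the length, and whether Tead or coactivator transcripts are the more numerous cannot be read from these values. Whether reads in 3′ UTRs were counted was not tested.

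**Figure D3:**
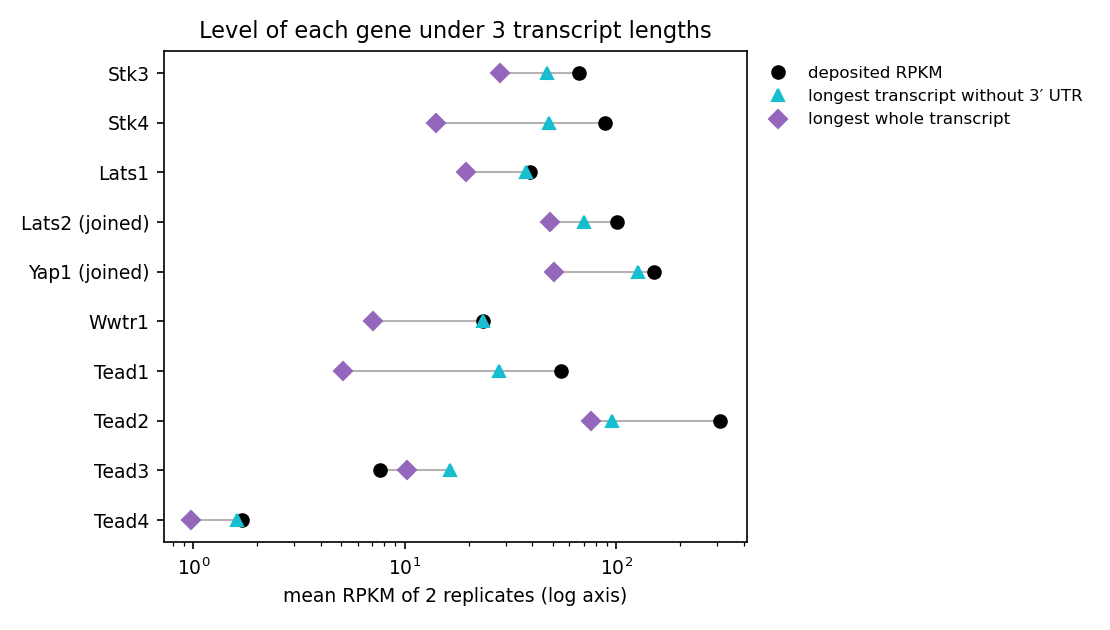
Mean RPKM of the 2 replicates (log axis) for each gene as deposited (circles), with reads divided by the longest coding transcript without its 3′ UTR (triangles) and by the longest whole coding transcript (diamonds). Tead1 moves most, from 55.0 to 5.10 RPKM, and Wwtr1 has the same value as deposited and without the 3′ UTR.

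Most loci were lower in replicate 2, and the set moved with them. All 10 genes were lower in replicate 2, as were 79.1% of the 18335 loci with a mean of 1 RPKM or more. The median log2 ratio of replicate 2 to replicate 1 was -0.43 over the 10 genes and -0.38 over those loci. The difference was not the same at all loci. Of the 11 markers of embryonic tissues, 6 were higher in replicate 2 and 5 lower. Loci of 221 RPKM or more had an SD of 1.19 in this ratio. None of the 10 genes was lower or higher by over 2-fold on the log2(RPKM + 1) scale, against 8.74% of loci lower and 3.03% higher. When 0.1 was added to RPKM in place of 1, 1 gene was lower by over 2-fold. This was Tead4, at 2.33 and 1.08 RPKM, whose counting intervals in the replicates did not overlap. With 1 added, which understates the ratio of low genes such as Tead4, Tead1 had the largest ratio (-0.86). Lats1 (-0.68) and Tead4 (-0.68) followed, and Stk4 had the smallest (-0.14). Once the median ratio of loci was taken off, each gene lay within 1 SD of the loci of its level, Tead1 at -0.96 SD. For Yap1 the length behind the RPKM was 1.54 kb in replicate 1 and 1.27 kb in replicate 2, and with the latter in both its mean level was 167 RPKM.

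**Figure D4:**
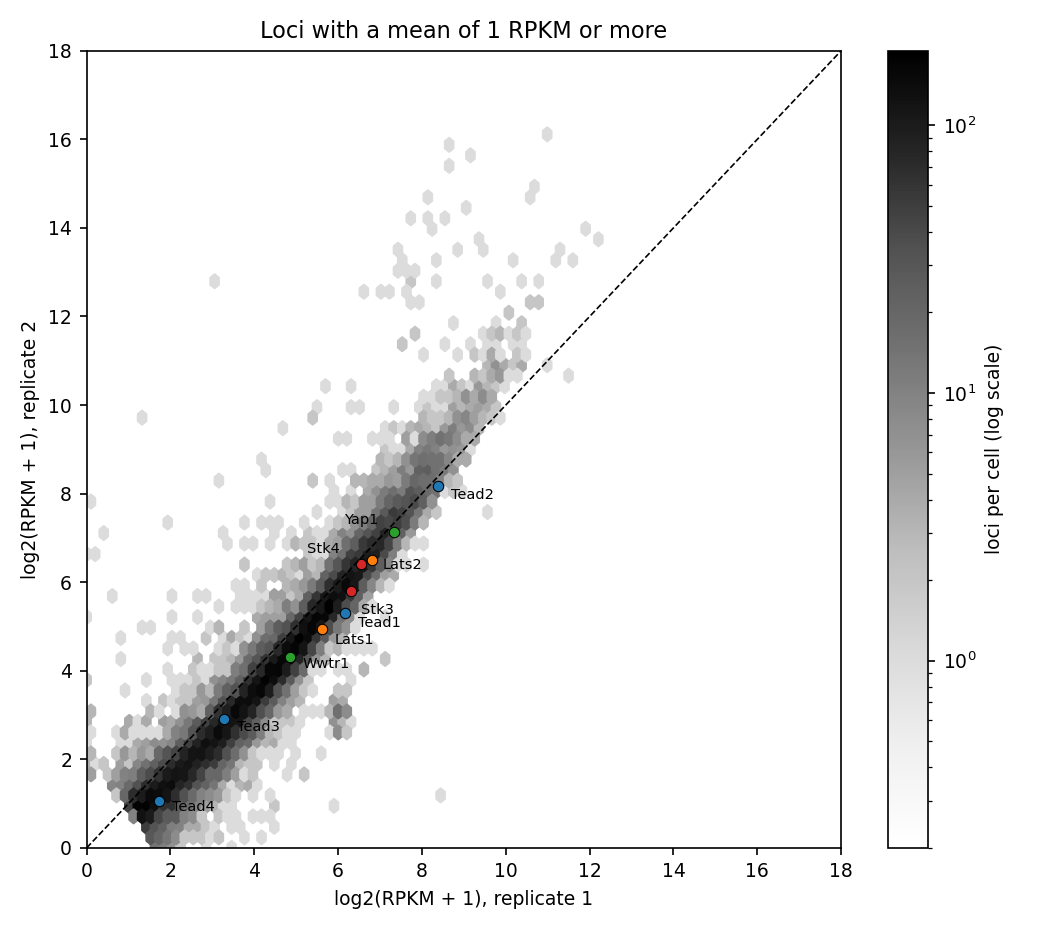
Level in replicate 2 against replicate 1 on the log2(RPKM + 1) scale for loci with a mean of 1 RPKM or more, with grey shade for the number of loci and coloured points for the 10 genes. The dashed line marks equal levels, and all 10 points lie below it, within the main band of loci.

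Most other genes of the pathway were also detected. Of 59 further loci in lists of adaptors, upstream regulators, cofactors and targets, 57 met the minimum of 1 RPKM in each replicate, and 10 of the loci joined several genes. Their median was 23.7 and 16.5 RPKM, beside 8.38 and 5.52 RPKM for protein-coding loci, of which 65.1% met the minimum. Over the protein-coding loci that met the minimum in both, the median was slightly higher, at 26.3 and 19.1 RPKM. These lists were chosen for the pathway and not as a sample of genes, so the share says nothing particular to it.

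All core adaptors were measured in loci of their own. Sav1, the scaffold that joins the Stk kinases to Lats, stood at 79.98 and 66.3 RPKM, in the range of Stk3 and Stk4. Mob1a, a coactivator of the Lats kinases, stood at 39.3 and 35.4 RPKM, and its paralogue Mob1b at 17.0 and 8.14 RPKM. Stk3, Stk4, Lats1 and these adaptors were all above the median of protein-coding loci in both replicates. Mob1b was below the median of the protein-coding loci that reached 1 RPKM in both, 26.3 and 19.1 RPKM. The related NDR kinases differed from each other, with Stk38 at 165 and 123 RPKM and Stk38l at 9.68 and 6.56 RPKM.

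Among upstream scaffolds and cell surface proteins all 11 loci met the minimum, and the list median was 42.4 and 28.8 RPKM. Nf2, which encodes Merlin, a membrane-linked activator of the Lats kinases, was highest at 128 and 138 RPKM. Amotl2 (136 and 101 RPKM) and Amotl1 (86.3 and 67.6 RPKM), angiomotin proteins that bind YAP at cell junctions, came next, and the related Amot stood at 81.7 and 71.4 RPKM. Wwc1, which encodes the scaffold KIBRA, was the lowest, at 8.997 and 4.76 RPKM. Upstream kinases of the Taok and Map4k families reached the minimum at all 10 loci. Map4k4 led the loci of single genes with 165 and 191 RPKM, while Map4k2 (394 and 331 RPKM) and Taok1 (109 and 114 RPKM) lay in joined loci, the former with the splicing factor gene Sf1. Map4k1, a kinase of blood cells, was lowest at 2.23 and 1.03 RPKM.

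Regulators of the kinases, most of them restraints, reached the minimum at 10 of 11 loci, with Rassf1 in a joined locus. Strn4 (201 and 176 RPKM) and Strn3 (126 and 195 RPKM), subunits of the phosphatase complex that acts on the Stk kinases, were highest, followed by their partner Slmap (93.2 and 60.8 RPKM). Rassf6 was the exception, at 1.88 and 0.608 RPKM. Of the vestigial-like cofactors, which bind Tead factors, Vgll4, a competitor of YAP, stood at 54.2 and 48.7 RPKM. Its relatives were far lower: Vgll3 at 4.62 and 2.90 RPKM, Vgll2 at 4.54 and 2.21 RPKM and Vgll1 at 0.621 and 0.534 RPKM. In deposited RPKM, Vgll4 stood above Wwtr1 and below Yap1 in both replicates. These differences were not set against the limit used for paralogues, and no value with another length is given for Vgll4.

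Genes known from other cells as YAP and TAZ targets were detected in full but at moderate levels. All 23 loci of the list met the minimum and 13 also 10 RPKM, beside 65.1% and 42.2% of protein-coding loci. Their median was 19.8 and 11.5 RPKM, beside 26.3 and 19.1 RPKM over protein-coding loci that reached 1 RPKM in both. Other factors also drive these genes. The highest were Amotl2 and the Lats2 locus, both feedback inhibitors of YAP, and Rbms3 (66.8 and 42.0 RPKM), an RNA-binding protein. Nt5e, a surface enzyme that makes adenosine, was lowest at 2.26 and 2.21 RPKM. The targets most used as readouts, chosen after their values were seen, lay between: Ccn1 at 13.2 and 7.87 RPKM, Ccn2 (joined with Gm15270) at 21.5 and 11.4 RPKM, and Ankrd1, which heart muscle also expresses, at 22.7 and 21.7 RPKM.

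Among the targets, 8 of 18 promoter windows held GGAATG on either strand, against 14.7% of all windows in the table. By gene, promoters of 8 of the 16 target genes with an entry held it, against 16.6% of all genes in the table. Stretches of 3 of them are printed, as the targets best known to be bound by Tead factors or to feed back on the pathway, a choice made after the values were seen, with the match in capitals. The Ccn1 stretch lies at chr3:145650063-145650108 on the minus strand, that of Ankrd1 at chr19:36119942-36119987 on the minus strand and that of Amotl2 at chr9:102717719-102717764 on the plus strand (RefSeq, GRCm38.p6). The matches start 103, 123 and 65 bases upstream of the transcript starts.
Ccn1: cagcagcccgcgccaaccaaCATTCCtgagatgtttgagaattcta
Ankrd1: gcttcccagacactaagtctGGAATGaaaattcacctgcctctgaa
Amotl2: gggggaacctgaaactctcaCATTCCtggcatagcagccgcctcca
Ccn1 and Amotl2 have the match on the opposite strand, and the Ankrd1 window holds a second match that starts 210 bases upstream. Ccn2, Arhgef17, Asap1, Ccdc80, Dock5, Fjx1 and Nuak2 had no entry. Lats2 is 1 of the 8 target genes with a match and was also counted among the 10 core genes. The windows of the targets were rich in G and C as well, with a median of 60.7% against 52.7% over all windows.

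**Figure D5:**
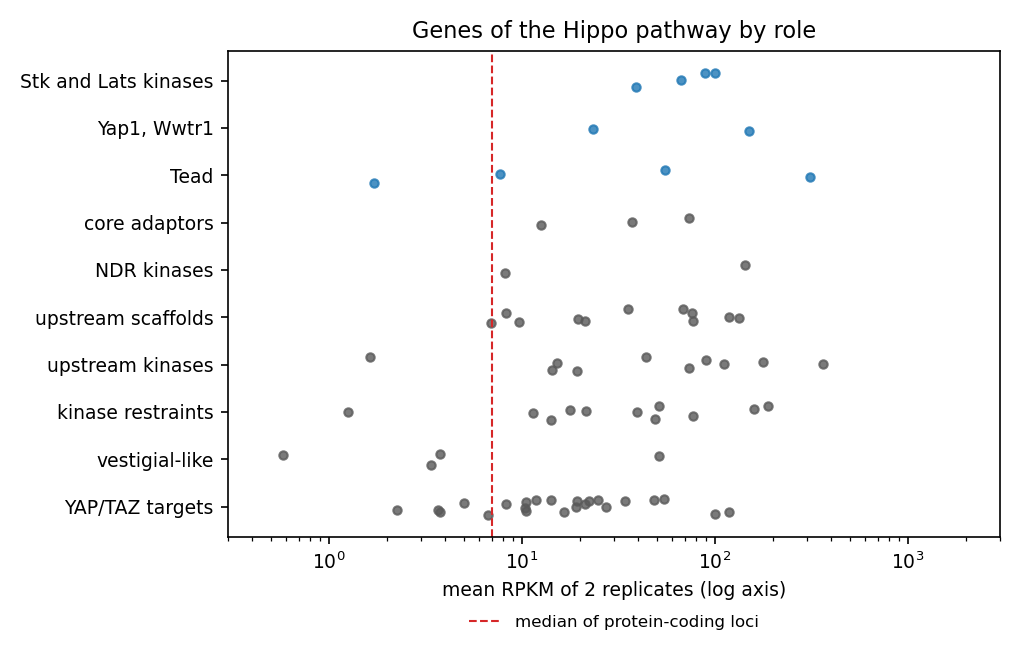
Mean RPKM of the 2 replicates (log axis) for the genes of each list, with the 10 core genes in blue and the other lists in grey; the vertical position within a row is spread for visibility. The dashed line is the mean of both replicates' medians over protein-coding loci, and Tead4 is the only blue point below it.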

How the data were processed

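RNA of untreated whole embryos was sequenced in 2 replicates, and nothing says that they came from separate litters. TopHat and mm9 are named in the submitters' processing notes. For the read counter, read filters and strand setting the status is: not given in the sources used here. Genes and antisense partners therefore cannot be told apart. RPKM values and raw read counts were deposited per row by the authors and named in the file headers. The 34676 rows were summed by identifiers to 34624 loci. Gene types and transcript lengths were matched by identifier from a later annotation, GENCODE M21, and its coordinates were not used. The scale that links reads to RPKM, with a ratio of 5.68 between libraries, was the median over single-transcript non-coding loci of over 200 reads in replicate 1, and gave the implied lengths and the RPKM with other lengths.

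The 10 genes and all lists were chosen with earlier results of these data known. Named genes were the 10 genes, all genes of lists of 4 or fewer, the 3 highest and the lowest by mean RPKM of longer lists, and any at 0 reads. Amot, Ccn1, Ccn2, Ankrd1, Axl, Ccdc80 and Prl8a2 fall outside that rule and were added with their values known. Differences are on log2(RPKM + 1), which understates those of low genes, with SDs in 20 equal-number bins of loci of 1 RPKM or more. The series has a single group, so counts entered no test. The code was tested on data simulated with the same SD at all levels, so that test does not cover the uneven spread of the real loci. Alternatives covered rows, lengths, scaling, the added constant, the SD, the minimum and each replicate left out. Python 3.11.15, NumPy 2.4.6, pandas 2.3.3, SciPy 1.17.1 and matplotlib 3.10.9 were used.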

Additional observations from a re-analysis of the deposited data

How the results depend on the processing

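The length behind RPKM changed levels, shares and the sign of differences, and its annotated values were alternatives chosen after seeing the data. With the longest whole transcript the median level of the 10 genes was 16.8 RPKM instead of 60.8, Tead1 minus Tead3 turned to -0.89, Stk3 minus Stk4 turned to 0.94, and the share of Stk4 was 33.6% instead of 57.4%. Without 3′ UTRs the shares were 67.8% for Tead2 (83.1% as deposited), 84.5% for Yap1 (86.7%) and 50.7% for Stk4, and Tead1 minus Tead3 (0.71) was no longer called. With the replicates rescaled to a common median, the median log2 ratio of the 10 genes was -0.078 instead of -0.43, by construction of the scaling. From 5 to 8 of 9 pairs were called over 14 alternatives (6 with either annotated length, 8 with a robust SD, with SDs from protein-coding loci and with 2 SD at the pair's mean level, the last chosen after seeing the data), and Yap1 minus Wwtr1, Tead1 minus Tead4, Tead2 minus Tead3 and Tead2 minus Tead4 were called in each of them. Leaving out a replicate gave median levels of 46.8 to 74.7 RPKM and 5 to 7 called pairs. Of the 59 pathway loci 57 reached 1 RPKM and 38 reached 10 RPKM, beside 65.1% and 42.2% of protein-coding loci. No paired analysis was possible because the series holds 1 group, so no replicates pair across groups, and the differences between paralogues were taken within each replicate. Depth limits Tead4 most, with 56 reads in replicate 1.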

Other observations

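Of the 59 pathway loci outside the 10 genes, 53 were lower in replicate 2, beside 79.1% of loci of 1 RPKM or more. The other 6 were higher there: Nf2, Taok1 (joined), Map4k4, Strn3, Axl and Ccdc80. Ccdc80, which encodes a matrix protein, stood at 30.2 and 66.2 RPKM, and the receptor kinase Axl at 19.8 and 29.8 RPKM. These genes were picked after their values were seen, and both replicates belong to the same group.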
